A study of Bos taurus with 34 samples.

Results

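The let-7 family with miR-98 was followed in the cell-free fraction of cow blood, by status and by day after calving. Its members were taken by name from the count files: bta-let-7a-5p, bta-let-7a-3p, bta-let-7b, bta-let-7c, bta-let-7d, bta-let-7e, bta-let-7f, bta-let-7g, bta-let-7i and bta-miR-98. These are 10 of the 800 bovine miRNA names listed, and the species prefix is dropped from here on. The name miR-3596 was not counted, because it held the same count as let-7b in 33 of 33 libraries.

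Small RNA libraries came from 17 dairy cows. Of these, 11 had subclinical endometritis (SCE), a lasting uterine inflammation after calving that shows no outward sign, and 6 were healthy, as judged from uterine cytology and biopsy. Each cow was sampled at 2 times, which the labels call day 25 and day 45 and the design text 21 and 44 days postpartum. The labels name the sample blood serum and the design text names it plasma. The groups were SCE cows at day 25 (11 libraries), healthy cows at day 25 (5 libraries), SCE cows at day 45 (11 libraries) and healthy cows at day 45 (6 libraries). Healthy cow 3 entered at day 45 alone, because the file listed for its earlier sampling repeats the later one. No source used here gives a treatment, a breed or an age.

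Library totals ran between 678389 and 28872153 counts. SCE cow 10 was the shallowest, with 1343401 counts at day 25 and 678389 at day 45. The numbers in the library titles ran from 31 to 52 in SCE cows and from 13 to 24 in healthy cows, so an order of preparation that followed these numbers cannot be told apart from status. All 3 red blood cell markers fixed for this work (miR-486, miR-451 and miR-144) were detected in each group, and so were all members of the platelet, lymphocyte and liver lists. In cell-free RNA, release by fewer or more cells and a change in RNA per cell cannot be told apart.

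let-7 was found in the worm Caenorhabditis elegans as a regulator of developmental timing. In vertebrates its members are made from many hairpins, share a seed, the stretch near the 5′ end that pairs with target mRNAs, and repress mRNAs such as HMGA2, MYC and RAS genes. miR-98 has the same seed and is counted with the family. The protein LIN28 blocks the processing of let-7 precursors, and the mature forms accumulate in differentiated cells. In human cells let-7a has been shown to repress the cytokine IL6, and let-7i the endotoxin receptor TLR4. let-7a-3p comes from the opposite arm of a let-7a hairpin and has another seed.

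In the bovine gene table of RefSeq (assembly ARS-UCD2.0), 12 of 12 hairpins of the members were found, and 10 had another miRNA gene within 10 kb. let-7a-1, let-7f-1 and let-7d lay together, and so did let-7a-3 and let-7b, with MIR3596 and MIR2443. let-7f-2 lay with miR-98. let-7a-2 lay beside miR-100, let-7c beside miR-99a, and let-7e beside miR-99b and miR-125a. let-7g and let-7i had no miRNA gene within 10 kb. Within 100 kb, let-7a-2 and let-7c also had a miR-125b hairpin, let-7e had MIR12038 and let-7g had MIR135A-1. miR-125b is counted below as a cluster partner at this wider distance. The mature forms of let-7a and let-7f each have more than 1 hairpin, so their reads do not name the locus. Mature let-7 members are near-identical in sequence, and no source used here says how the authors' counting placed reads that match several of them, so differences between close members are uncertain.

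Levels are given as CPM on library sizes scaled by TMM factors (TMM-scaled CPM), which align libraries on the bulk of their miRNAs. let-7f was the most abundant member, with a mean of 3644 TMM-scaled CPM over 33 libraries and a rank of 29 among the 800 names. let-7i averaged 2139, let-7g 1520 and let-7a-5p 1466 TMM-scaled CPM. These 4 made up most of the family's reads.

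let-7b averaged 704 TMM-scaled CPM, let-7d 383, miR-98 235 and let-7c 160. let-7a-3p and let-7e stood far below, at means of 16.5 and 15.1 TMM-scaled CPM and ranks of 184 and 198. Counts of different miRNAs were not corrected for how well each ligates, so the order is one of reads.

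Some neighbours in this order did not separate. let-7g was above let-7a-5p in 21 of 33 libraries, miR-98 above let-7c in 22 and let-7a-3p above let-7e in 18. The other neighbours kept their order in most libraries: let-7f was above let-7i in 29, let-7i above let-7g in 31, let-7a-5p above let-7b in 28, let-7b above let-7d in 32 and let-7d above miR-98 in 28. The top member was let-7f in 10 of 11 SCE libraries and 4 of 5 healthy libraries at day 25, and in 11 of 11 SCE libraries and 4 of 6 healthy libraries at day 45. In the remaining libraries it was let-7i.

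The members differed in how widely they spread. let-7a-5p covered a 22.4-fold range over the 33 libraries (295 to 6627 TMM-scaled CPM), and miR-98 a 20.8-fold range (52 to 1081). let-7b had the narrowest, 4.69-fold (331 to 1551). The rarest members rest on few reads in the shallowest library: SCE cow 10 at day 45 had 6 reads of let-7e and 14 of let-7a-3p.

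**Figure D1:**
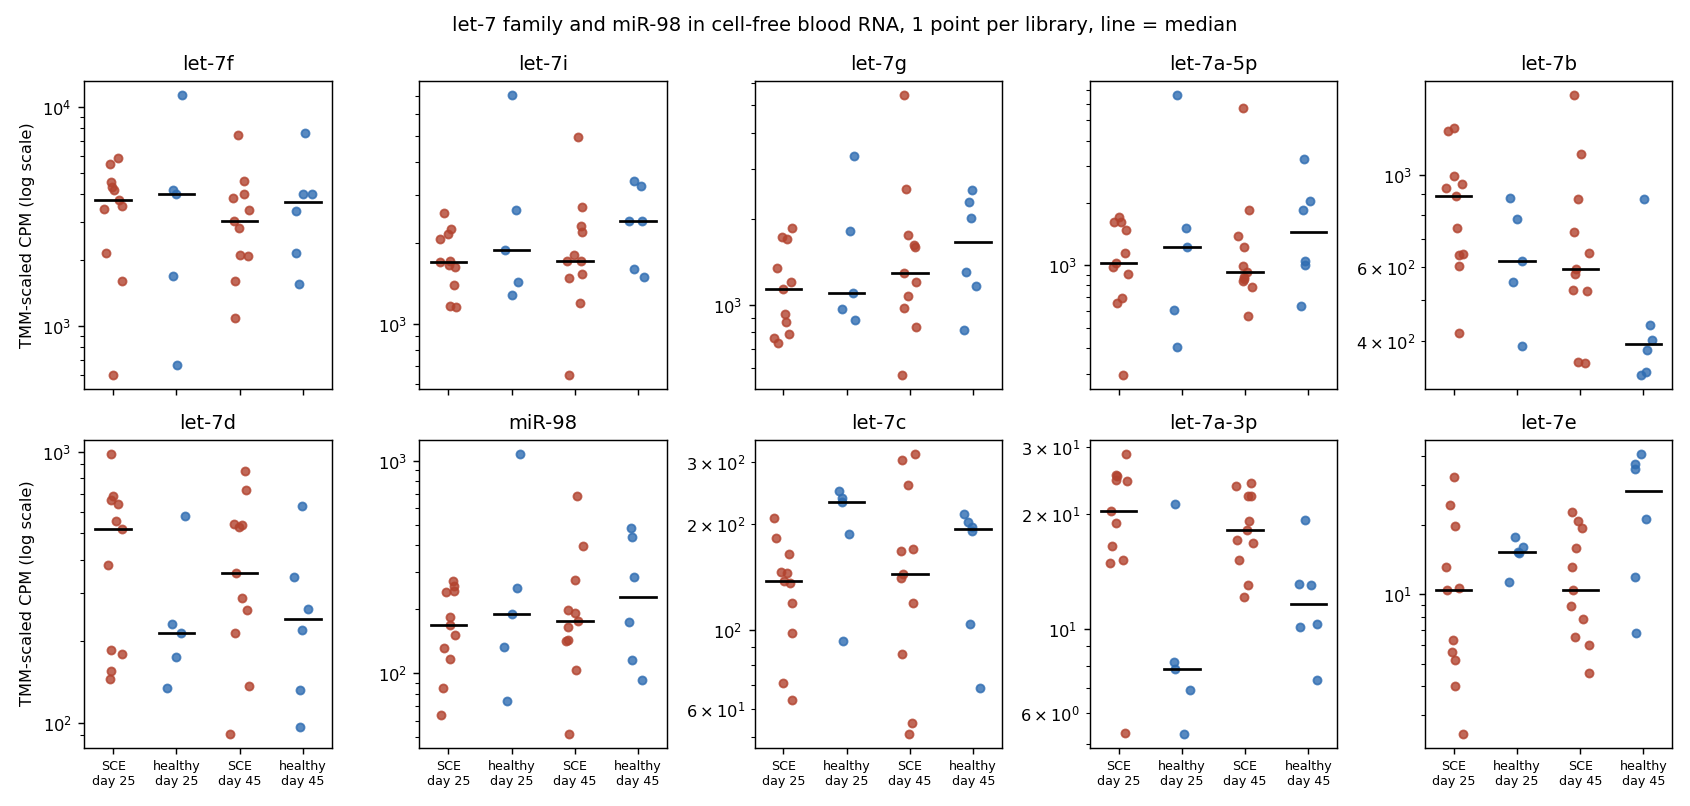
TMM-scaled CPM (log scale) of the 10 members, 1 panel each, with 1 point per library (SCE red, healthy blue; day 25 then day 45) and the group median as a line. The groups overlap in every panel; healthy cow 4 at day 25 is the highest point for let-7f (11365), let-7i (7063), let-7a-5p (6627) and miR-98 (1081).

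The first question was whether any member differed between SCE and healthy cows at day 25. edgeR's quasi-likelihood test called 0 of 10 members at an adjusted p of 0.05, and 1 of all 372 miRNAs tested (0.269%). At an unadjusted p under 0.05 stood 2 members, let-7a-3p and miR-98, in a table where 20.2% of all miRNAs did. DESeq2 called 0 members and 2.68% of its 522 miRNAs. Fold changes of SCE over healthy were above 0 for 3 of 10 members and for 47.8% of all miRNAs. The median log2 fold change was -0.42 over the members and -0.053 over all miRNAs. No member's groups were free of overlap, as against 0.269% of all miRNAs.

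let-7a-3p had the highest fold change of the family at day 25. In the SCE libraries it ran between 5.33 and 28.8 with a median of 20.3 TMM-scaled CPM. The 5 healthy libraries had 8.18, 6.92, 5.31, 21.2 and 7.84 (cows 1, 2, 4, 5 and 6). Healthy cow 5 stood among the SCE cows, SCE cows stood above the healthy median in 10 of 11 cases, and the groups overlapped. Its log2 fold change was 0.96 (SE 0.43, 95% interval 0.07 to 1.86), with an edgeR adjusted p of 0.222.

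let-7d lay in the same direction, with a wide spread. SCE libraries ran from 145 to 986 with a median of 520 TMM-scaled CPM. The healthy libraries had 134, 174, 578, 231 and 214, so that cow 4 alone stood in the upper SCE range and the others at or below its lower part. For SCE over healthy the log2 value was 0.77 (SE 0.49, interval -0.25 to 1.79; edgeR adjusted p 0.376). let-7b, the third member above 0, had a log2 fold change of 0.35 (SE 0.33; edgeR adjusted p 0.542), and 6 of 11 SCE libraries stood above every healthy one.

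The abundant members and miR-98 had fold changes below 0 at day 25. miR-98 ran from 63.9 to 273 with a median of 169 TMM-scaled CPM in SCE cows. In healthy cows it was 73.9, 133, 1081, 190 and 251, so 4 of the 5 lay inside the SCE range and cow 4 far above it. Its log2 fold change was -1.01 (SE 0.48, interval -2.01 to -0.01; edgeR adjusted p 0.246).

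let-7a-5p showed the same picture. SCE libraries held 295 to 1706 with a median of 1021 TMM-scaled CPM, and healthy libraries 406, 611, 6627, 1228 and 1510. All healthy libraries but that of cow 4 fell inside the SCE range. SCE over healthy came to -0.94 on the log2 scale (SE 0.50; edgeR adjusted p 0.280), and let-7i to -0.72 (SE 0.36; edgeR adjusted p 0.251). let-7c, let-7g, let-7e and let-7f had log2 fold changes of -0.62, -0.48, -0.36 and -0.31.

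Several of these values rested on 1 library. Without healthy cow 4 the log2 fold change was 0.22 for let-7a-5p, 0.088 for miR-98 and 0.44 for let-7f, each with its sign turned, and -0.047 for let-7i and -0.021 for let-7g. That of let-7d was 1.28 without the same cow, and that of let-7a-3p 0.84. No member was called by edgeR with any cow left out.

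At day 45 edgeR called 0 of 10 members and 0% of 382 miRNAs. At an unadjusted p under 0.05 stood 1 member, let-7e, and 10.2% of all miRNAs. DESeq2 called 0 members and 0.134% of 748 miRNAs. The fold change was above 0 for 5 of 10 members and 57.1% of all miRNAs, and the median log2 fold change was -0.040 over the members and 0.11 over all. Non-overlapping groups were found for no member and for 0% of all miRNAs.

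let-7e, the family's rarest member, ran from 4.55 to 22.9 with a median of 10.5 TMM-scaled CPM in SCE cows and from 6.81 to 41 with a median of 28.2 in healthy cows. No SCE library reached the healthy median, while healthy cows 3, 4 and 6 stood inside the SCE range. The log2 fold change was -0.95 (SE 0.45, interval -1.88 to -0.02; edgeR adjusted p 0.460). At day 25 the log2 fold change of let-7e was -0.36, with 7 of 11 SCE libraries below every healthy one and 3 above every one.

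let-7a-3p at day 45 ran from 12.1 to 24.2 with a median of 18.2 TMM-scaled CPM in SCE cows and from 7.32 to 19.3 with a median of 11.6 in healthy cows. All 11 SCE libraries were above the healthy median and the ranges overlapped. The log2 fold change was 0.64 (SE 0.37; edgeR adjusted p 0.574). let-7b had 354 to 1551 with a median of 593 in SCE cows and 331 to 873 with a median of 392 in healthy cows. Healthy cow 6 stood apart from the other healthy cows, and 3 of 11 SCE libraries were above it. The log2 fold change of let-7b was 0.68 (SE 0.38; edgeR adjusted p 0.569), and that of let-7d was 0.59 (SE 0.48; edgeR adjusted p 0.690).

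The other 6 members lay between -0.22 (let-7i) and 0.068 (let-7c) on the log2 scale at day 45. For let-7a-5p the value was -0.14 with all cows, -0.53 without SCE cow 8 and 0.21 without healthy cow 3. SCE cow 8 had the highest let-7g of all libraries at day 45 (5435 TMM-scaled CPM) and the highest let-7a-5p among SCE libraries (5714).

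With the counts of each cow summed over both days, edgeR called 0 of 10 members and 1 of 418 miRNAs (0.239%). At an unadjusted p under 0.05 stood 1 member, let-7a-3p, and 16.5% of all miRNAs. The log2 fold change was above 0 for 3 of 10 members (let-7a-3p, let-7b and let-7d) and 53.1% of all miRNAs, with medians of -0.14 and 0.043. That of let-7a-3p was 0.76 (SE 0.30, interval 0.14 to 1.39; edgeR adjusted p 0.214). DESeq2 gave it 0.73 and an adjusted p of 0.0432, the only member DESeq2 called, among 5.24% of 286 miRNAs. let-7d had 0.71 (SE 0.38; edgeR adjusted p 0.330), let-7b 0.54 (SE 0.27; edgeR adjusted p 0.298) and let-7e -0.62 (SE 0.41; edgeR adjusted p 0.402).

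The scaling of libraries moved every one of these values. miR-486 took a median of 10.8% of counts in SCE libraries and 45.3% in healthy libraries at day 25, and 36.5% and 48% in SCE and healthy libraries at day 45. The median TMM factor was 1.37 in SCE libraries and 0.72 in healthy libraries at day 25, and 1.11 and 0.69 in SCE and healthy libraries at day 45. Scaled by library totals alone, an alternative chosen after seeing the data, the median log2 fold change of all miRNAs was 0.88 at day 25, 0.71 at day 45 and 0.77 over both days.

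On library totals edgeR called 12.9% of all miRNAs at day 25, all higher in SCE cows, 0.262% at day 45 and 15.3% over both days. Among the members let-7a-3p was called at day 25 (log2 fold change 1.89, edgeR adjusted p 0.0480). Over both days let-7a-3p (1.49, adjusted p 0.0190), let-7b (1.28, adjusted p 0.0173) and let-7d (1.39, adjusted p 0.0451) were called by edgeR. Over the 26 alternatives run on each of these results the adjusted p reached 0.750 for let-7a-3p at day 25 and 0.989 for all 3 members over both days, each where a ratio of miR-486 over miR-23a in the library, on the log2 scale, entered as a covariate. In that fit the log2 fold change was 0.39 for let-7a-3p at day 25, and over both days 0.38 for let-7a-3p, 0.41 for let-7b and 0.10 for let-7d. Set against the median of all miRNAs, let-7a-3p stood at 1.02, let-7d at 0.90 and let-7b at 0.59 log2 units above it at day 25, and the other 7 members below it. Over both days the same 3 stood 0.72, 0.62 and 0.51 above the median, and the other 7 below.

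**Figure D2:**
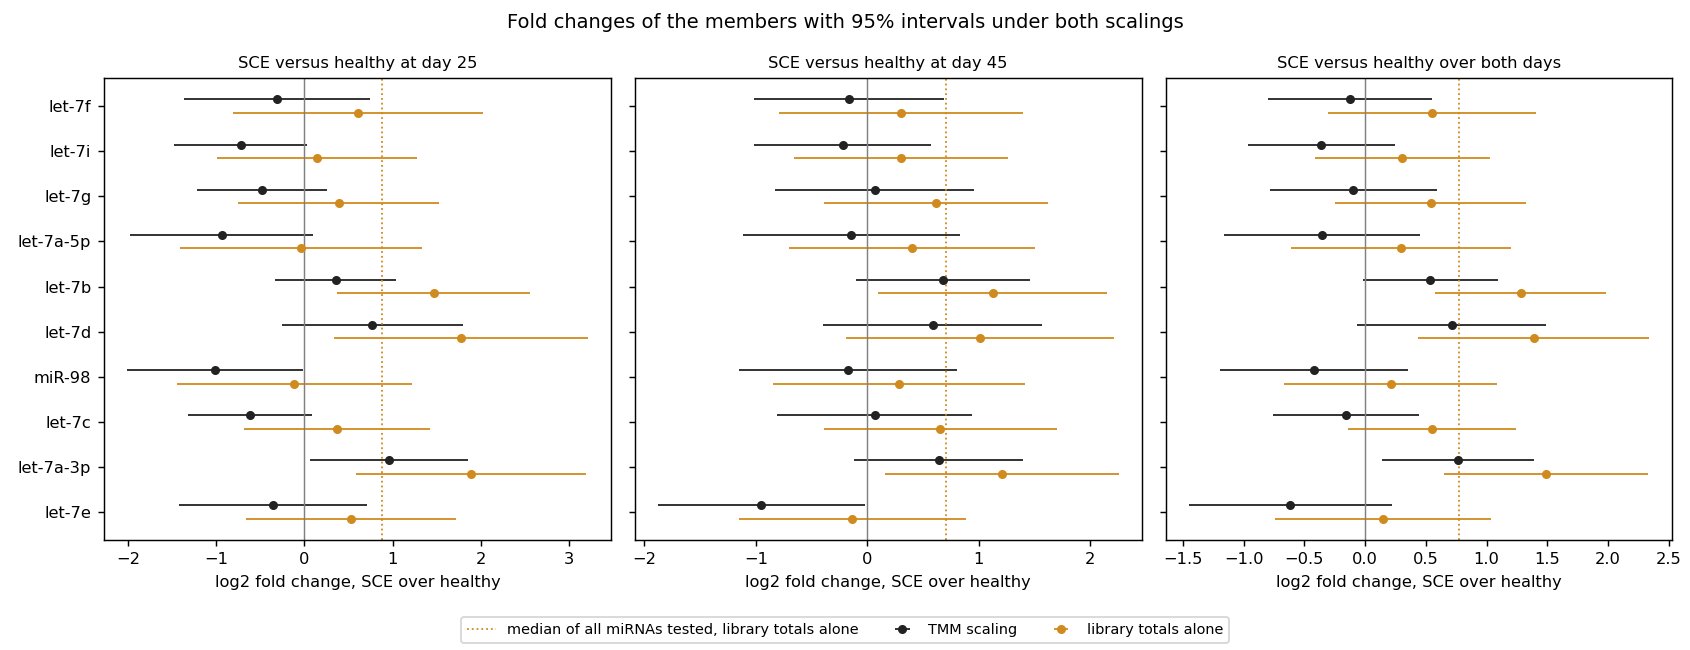
Log2 fold change of each member, SCE over healthy, with 95% intervals, at day 25, day 45 and over both days, under TMM scaling (black) and library totals alone (orange); the dotted line is the median of all miRNAs on library totals. let-7a-3p, let-7b and let-7d are the highest 3 of the 10 in each panel under both scalings; all orange points lie right of their black ones.

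As a share of all counts, the family took a median of 1.33% in SCE libraries (0.171% to 2.36%) and 0.448% in healthy libraries (0.187% to 2.70%) at day 25. At day 45 it took 1.10% (0.391% to 3.07%) and 0.598% (0.328% to 2.27%) in SCE and healthy libraries. The ranges overlapped at both days. With miR-486 left out of the total the medians were 1.65% and 1.01% in SCE and healthy libraries at day 25, and 1.43% and 1.47% at day 45. The summed family stood at median TMM-scaled CPM of 9706 in SCE cows and 9338 in healthy cows at day 25, and 8624 and 9701 in SCE and healthy cows at day 45.

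Shares within the family do not depend on library scaling, and are given as a description. let-7d made up 2.07% to 10.5% of family reads in SCE libraries at day 25, with a median of 4.34%. In healthy libraries it made up 2.83%, 2.91%, 1.87%, 2.08% and 2.30%. Of the SCE libraries, 10 of 11 were above every healthy one, which includes cow 4 that stood high in TMM-scaled CPM. The lowest of these 10 was nearly tied, at 2.9125% in SCE cow 8 against 2.9108% in healthy cow 2. At day 25 miR-486 took 10.8% of counts or less in SCE cows 11, 12, 14, 15, 16 and 17. Their let-7d shares were 4.34% or more. In the other SCE libraries miR-486 took 27.8% or more, and the let-7d shares were at most 3.695%. In every healthy library it took 24.8% or more. At day 45 the let-7d share was 2.09% to 8.39% with a median of 3.66% in SCE libraries. In healthy libraries it was 1.68% to 3.65% with a median of 2.34%, and 6 of 11 SCE libraries were above every healthy one. Healthy cow 6 had the highest healthy share at day 45 and the lowest healthy miR-486 (14.7% of counts). SCE cow 15 had 52.1% miR-486 with a let-7d share of 6.22%, and SCE cow 9 had 3.95% with 3.66%. Whether the let-7d share follows miR-486 was not tested.

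let-7b made up a median of 8.89% of family reads in SCE libraries (5.85% to 16.0%) and 18.5%, 13.0%, 2.01%, 4.98% and 4.16% in the healthy libraries at day 25. Healthy cows 1 and 2 thus stood high and the groups overlapped widely. At day 45 it made up 8.55% (2.82% to 18%) in SCE and 4.19% (2.78% to 7.95%) in healthy libraries, with 6 of 11 SCE libraries above every healthy one.

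Median shares of let-7i were lower in SCE libraries. They were 18.9% in SCE libraries (13.9% to 34.6%) and 22.8% in healthy libraries (20.1% to 30.1%) at day 25, with 7 of 11 SCE libraries below every healthy one. At day 45 it was 20.2% (16.8% to 23.9%) in SCE and 23.5% (19.1% to 29.1%) in healthy libraries, with 4 of 11 below. let-7f held 38.9% and 36.7% of family reads in SCE and healthy libraries at day 25 by median, and 31.5% and 35.2% at day 45.

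**Figure D3:**
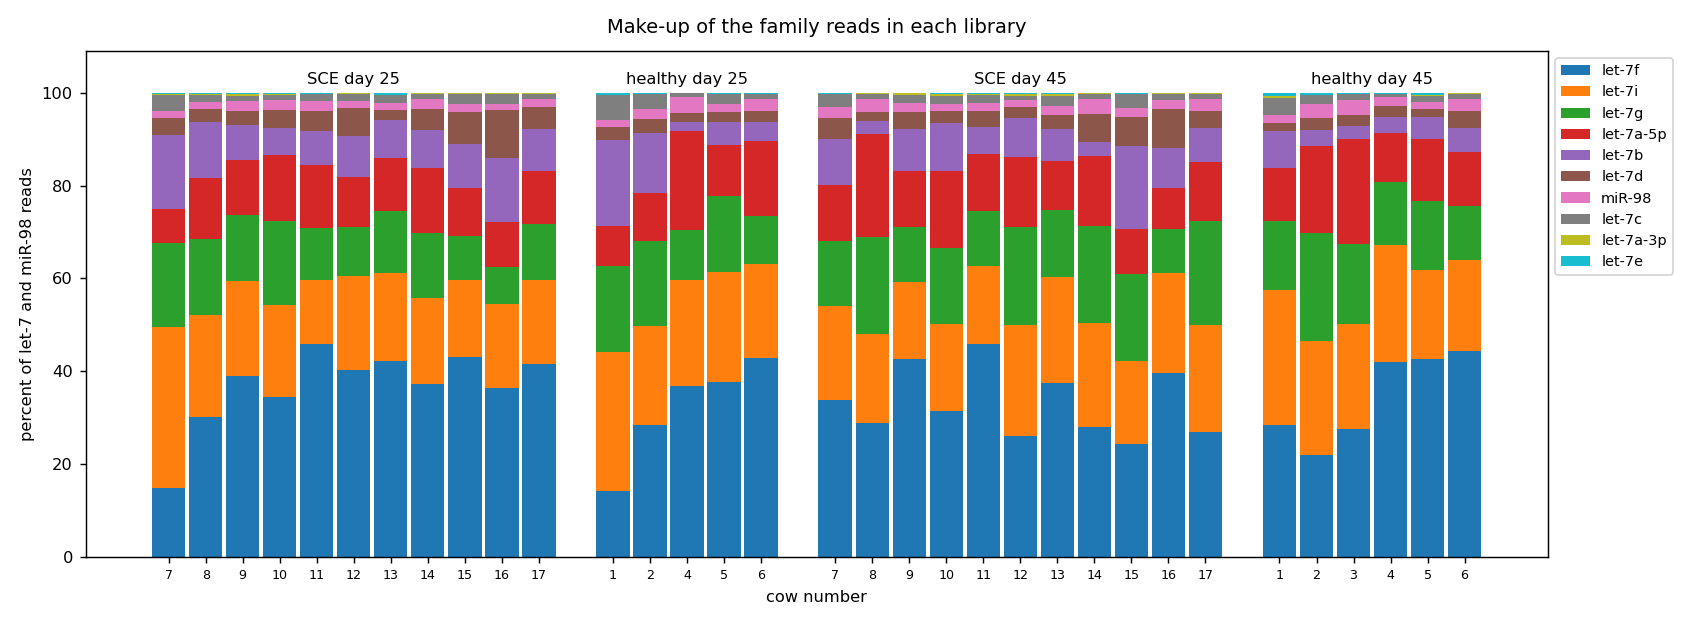
Percent of let-7 and miR-98 reads taken by each member, 1 bar per library, labelled with the cow number and grouped by status and day. let-7f and let-7i fill the lower part of each bar; the let-7d band reaches 10.5% in an SCE library at day 25, where no healthy library passes 2.91%.

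The arms of let-7a were compared as a ratio within each library, which also needs no scaling. Reads of let-7a-5p do not name their hairpin, so the ratio need not compare the arms of a single locus. At day 25 there were 0.935 to 3.16 reads of let-7a-3p per 100 reads of let-7a-5p in SCE libraries, with a median of 1.80. The healthy libraries had 2.02, 1.13, 0.0801, 1.73 and 0.519. Healthy cows 1, 2 and 5 stood within the SCE range, and cows 4 and 6 below it. The log2 ratio averaged -5.74 ± 0.50 in SCE cows and -7.15 ± 1.90 in healthy cows (SD, n = 11 and 5), a difference of 1.41 (exact permutation p 0.0201 two-sided, adjusted over the 2 days 0.0403). The permutation takes both groups as equally spread, while the smaller healthy group spread wider. Its p therefore does not measure a difference in means alone.

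The call rested on single cows. The difference was 0.63 without healthy cow 4 (exact permutation, adjusted p 0.0930), and the adjusted p also passed 0.05 without SCE cow 9, 12 or 16 or healthy cow 2 or 6. Over the 17 alternatives the adjusted p of this exact permutation test ran from 0.0190 to 0.112. At day 45 the log2 ratio averaged -5.98 ± 1.01 in SCE cows and -6.92 ± 1.10 in healthy cows (SD, n = 11 and 6), a difference of 0.94 (exact permutation p 0.0958, adjusted 0.0958). It was past the threshold only without SCE cow 8 (1.18, exact permutation, adjusted p 0.0256) or healthy cow 1 (1.2, exact permutation, adjusted p 0.0421), and its adjusted p ran up to 0.282 over 18 alternatives. The median number of let-7a-3p reads per 100 let-7a-5p reads was 1.94 in SCE and 0.963 in healthy libraries at day 45.

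Between the days, no member was called. In SCE cows edgeR called 0 of 10 members and 0% of 346 miRNAs for day 45 against day 25, with 0 members and 4.05% of all miRNAs at an unadjusted p under 0.05, and DESeq2 called 0 miRNAs. Log2 values were above 0 for 6 of 10 members and 41.6% of all miRNAs and ran from -0.38 (let-7b) to 0.48 (let-7g). In healthy cows edgeR called 0 of 10 members and 0% of 345 miRNAs, with 0 members and 2.9% of all at an unadjusted p under 0.05, and DESeq2 called 0 miRNAs. Log2 values ran from -0.56 (let-7b) to 0.78 (let-7e), above 0 for 4 of 10 members and 52.8% of all.

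The difference of the day effect between SCE and healthy cows was called by edgeR for 0 of 10 members and 0% of 406 miRNAs, with 0 members and 1.72% of all at an unadjusted p under 0.05, and DESeq2 called 0 miRNAs. Its log2 values were above 0 for 7 of 10 members and 50.2% of all and ran from -0.71 (let-7e) to 0.79 (miR-98), with 95% intervals that reached -2.09 for let-7e and 2.20 for miR-98. The day fits and this fit took both libraries of a cow as separate, so the intervals do not use the pairing. They are not limits of detection. With intervals this wide, a missing call does not show the absence of a difference.

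Within single cows the levels of both days differed widely, in both directions. Of 11 SCE cows with both days, 4 had a higher family sum at day 45, and the log2 change ran from -1.58 in cow 10 to 2.28 in cow 8. Of 5 healthy cows 3 were higher at day 45, and the change ran from -1.69 in cow 4 to 0.89 in cow 6. In SCE cow 8, the log2 change was 3.03 for let-7a-5p and 3.0 for miR-98, while in healthy cow 4 these were -2.72 and -2.62. let-7b was higher at day 45 in 4 of 11 SCE cows and 1 of 5 healthy cows, with median log2 changes of -0.56 and -0.88.

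**Figure D4:**
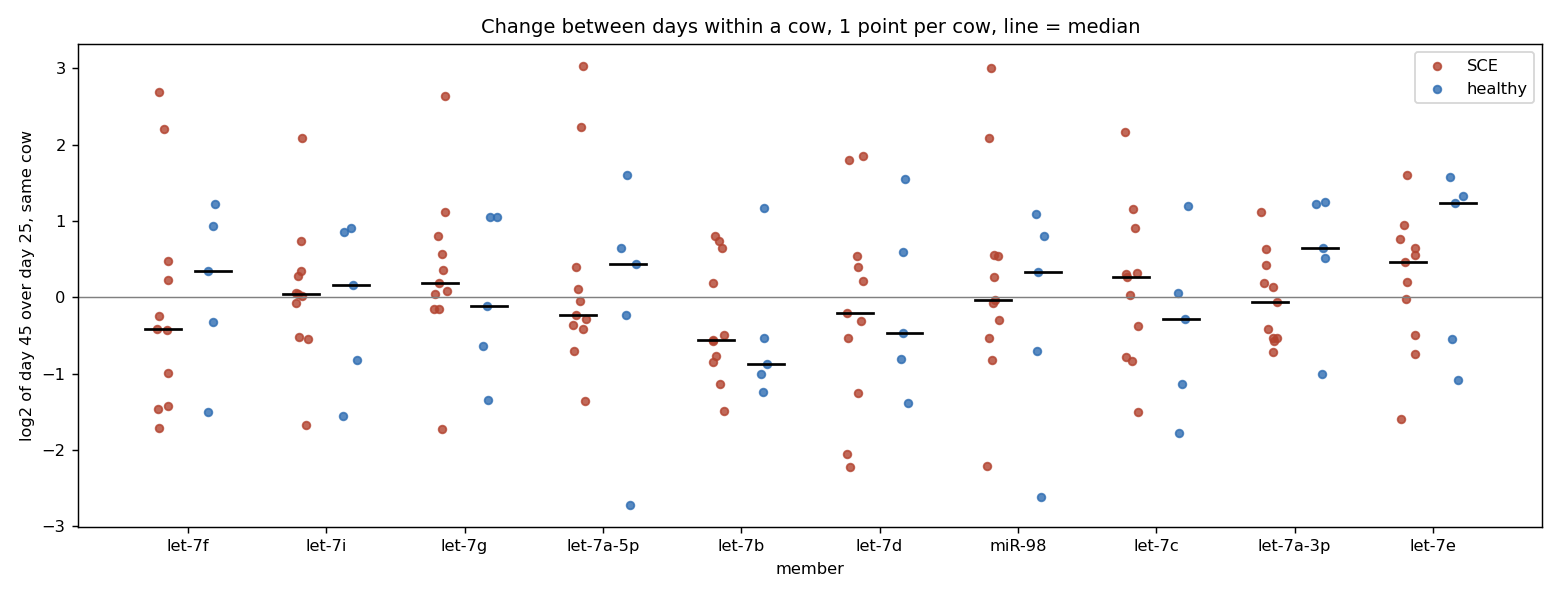
Log2 of the day-45 level over the day-25 level in the same cow for each member, 1 point per cow (SCE left and red, healthy right and blue), with the median as a line. Points lie on both sides of 0 for each member; the widest are let-7a-5p in SCE cow 8 (3.03) and in healthy cow 4 (-2.72).

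Across the 33 libraries Pearson r ran from 0.61 (let-7f and let-7g) to 0.95 among let-7a-5p, miR-98, let-7i, let-7g and let-7f. No sharp border set these 5 apart from the other members. These are descriptions: the libraries share TMM scaling, most cows enter at both days, and reads of near-identical members may have been shared in counting. On log2 levels, let-7a-5p and miR-98 were most alike, with Pearson r 0.95 and Spearman rho 0.92. Without the 2 libraries farthest from the median of let-7a-5p, r was 0.92. let-7i and miR-98 had r 0.91, let-7g and let-7i 0.86, and let-7a-5p and let-7f 0.83. Of these 5, let-7f shares one cluster with let-7a and another with miR-98, while let-7g and let-7i have no miRNA gene within 10 kb.

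let-7b, let-7a-3p and let-7e stood outside this set. let-7a-5p had r -0.03 with let-7b, whose hairpin lies beside let-7a-3, and r -0.03 with let-7a-3p, from the opposite arm of a let-7a hairpin. Without the 2 libraries farthest from the median of let-7a-5p these were -0.056 with let-7b and 0.22 with let-7a-3p. let-7d had r 0.69 with let-7f and 0.55 with let-7a-5p, its neighbours in one cluster, 0.66 with miR-98 and 0.58 with let-7b. Its values with let-7f and miR-98 were above the 0.61 of let-7f with let-7g. let-7c lay lower, between 0.30 with let-7f and 0.52 with let-7i. let-7e had negative values with let-7d (-0.53), let-7b (-0.46) and let-7a-3p (-0.41).

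**Figure D5:**
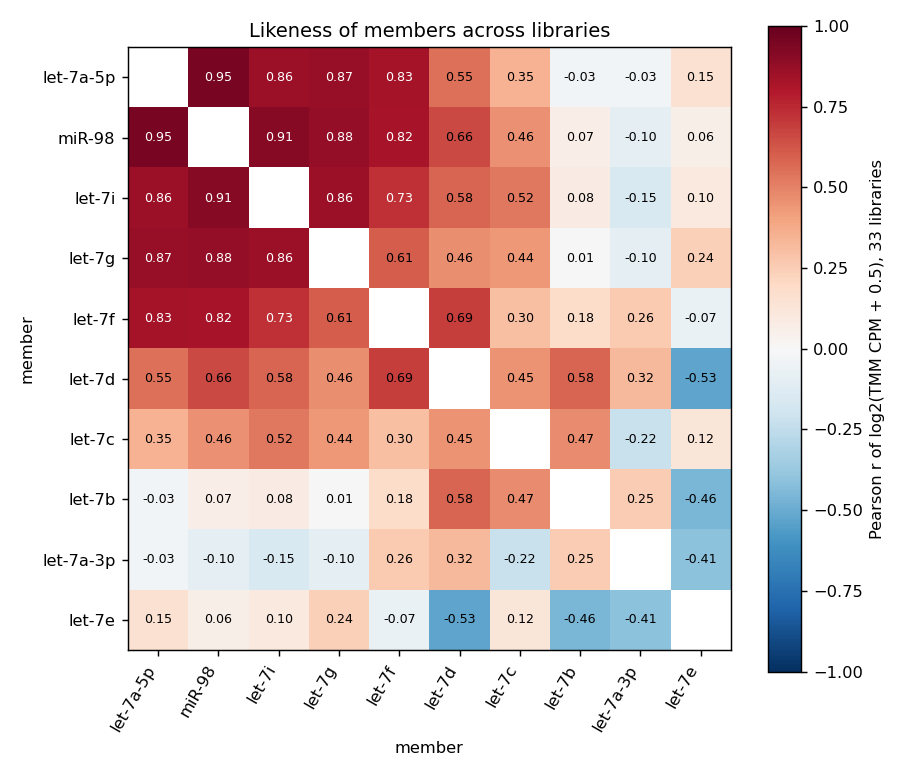
Pearson r of log2(TMM-scaled CPM + 0.5) between each pair of members over 33 libraries. let-7a-5p, miR-98, let-7i, let-7g and let-7f have r from 0.61 to 0.95 with each other. let-7d has r 0.69 with let-7f and 0.66 with miR-98, and let-7e is negative with let-7d (-0.53), let-7b (-0.46) and let-7a-3p (-0.41).

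The miRNAs that share a cluster with a let-7 hairpin were set beside it. let-7e had r 0.60 with miR-99b (rho 0.51) and 0.47 with miR-125a (rho 0.48). Without the 2 libraries farthest from the median of let-7e, r was 0.53 and 0.40. miR-99b and miR-125a had r 0.67 with each other. let-7c had r -0.27 with miR-99a-5p (rho -0.29), and let-7a-5p had r -0.11 with miR-100.

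Of the 6 cluster partners (miR-99a-5p, miR-99a-3p, miR-99b, miR-100, miR-125a and miR-125b) edgeR called none between SCE and healthy cows, at either day or over both. Their log2 fold changes were below 0 for 5 of 6 at each day and over both days, the exception being the rare miR-99a-3p. Of all miRNAs, 47.8% at day 25, 57.1% at day 45 and 53.1% over both days had a fold change above 0. At an unadjusted edgeR p under 0.05 stood 0 of 6 partners at day 25, against 20.2% of all miRNAs, 3 of 6 at day 45 (miR-99a-5p, miR-99b and miR-100), against 10.2%, and 2 of 6 over both days (miR-99b and miR-125a), against 16.5%. At day 45 they were -1.27 for miR-99b, -1.14 for miR-99a-5p and -1.24 for miR-100 (edgeR adjusted p 0.460 for each), beside -0.95 for let-7e.

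miR-99b at day 45 ran from 74.7 to 1673 with a median of 764 TMM-scaled CPM in SCE cows and from 185 to 3828 with a median of 1737 in healthy cows, so the groups overlapped. These partners were read under TMM scaling.

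Among 118 other miRNAs with a mean of at least 100 CPM, those most like the summed 5p members over the 33 libraries were miR-26b (rho 0.84, r 0.80), miR-155 (rho 0.83, r 0.84), miR-301b (rho 0.75, r 0.73), miR-221 (rho 0.74, r 0.80) and miR-6119-5p (rho 0.74, r 0.66). Without the 2 libraries farthest from the median of the summed 5p members, r ran from 0.62 for miR-6119-5p to 0.81 for miR-155. miR-155, a miRNA induced in activated lymphocytes and macrophages, had medians of 173 and 128 TMM-scaled CPM in SCE and healthy libraries at day 25 and 167 and 80.8 at day 45, with overlapping ranges. Its means were 148 and 157 in SCE and healthy libraries at day 25, and 163 and 111 at day 45. The day-25 log2 fold change of miR-155, SCE over healthy, was -0.10 (SE 0.48; edgeR adjusted p 0.916).

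Markers of blood cells and liver were read beside these results. The red blood cell list was carried by miR-486, which took 4.0% to 79.0% of counts in SCE and 24.8% to 81.1% in healthy libraries at day 25, and 3.95% to 52.1% in SCE and 14.7% to 73.0% in healthy libraries at day 45. The log2 ratio of miR-486 to miR-23a, a ratio read as red blood cell RNA, had medians of 5.57 and 9.69 in SCE and healthy libraries at day 25 and 8.49 and 10.3 at day 45. That of miR-451 to miR-23a had medians of 1.54 and 2.49 in SCE and healthy libraries at day 25 and 2.04 and 2.66 at day 45. With the miR-486 ratio as a covariate the log2 fold change at day 25 was -0.41 for let-7d, -0.021 for let-7b and 0.39 for let-7a-3p. With the miR-451 ratio in its place these values were 0.36 for let-7d, 0.23 for let-7b and 0.93 for let-7a-3p. The summed lymphocyte markers had medians of 2362 and 1814 TMM-scaled CPM in SCE and healthy libraries at day 25 (895 to 9605 and 684 to 3102), and 3108 and 801 at day 45 (811 to 14768 and 578 to 2196). Within this list the members differed. Medians of miR-150 were 934 and 1236 in SCE and healthy libraries at day 25, and 1692 and 271 at day 45. Those of miR-342 were 510 and 504 at day 25, and 905 and 488 at day 45. The summed platelet markers ran from 999 to 2471 in SCE and from 803 to 3287 in healthy libraries at day 25, and from 1183 to 2991 and from 1049 to 2319 at day 45. Most of that sum was miR-223, with medians of 1484 and 717 in SCE and healthy libraries at day 25, and 1139 and 854 at day 45. miR-223 is also counted as a myeloid miRNA, so the sum does not stand for platelets alone. Medians of miR-126-3p were 97.8 and 43.8 at day 25, and 108 and 91.5 at day 45. Those of miR-199a-3p were lower in SCE libraries, 143 and 259 at day 25, and 142 and 299 at day 45. The liver list was carried by miR-192, with sums of 8657 to 95115 in SCE and 10400 to 84332 in healthy libraries at day 25 and 11525 to 108050 and 24670 to 112170 at day 45, and miR-122, the hepatocyte miRNA, was low, at medians of 3.11 and 13.4 TMM-scaled CPM in SCE and healthy libraries at day 25. The part of lymphocytes, platelets and liver in the members' values was not tested.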

How the data were processed

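Cell-free small RNA was sequenced from blood of 17 cows. Per the labels' protocols, libraries were made with the TruSeq Small RNA kit, by adapter ligation, PCR and gel selection; no molecular identifiers are named, so counts are reads after PCR. The authors deposited raw counts per mature miRNA, 1 file per library. Per the submitters' processing notes, bcl2fastq 2.17.1.14, DESeq2 and the UMD 3.1 build were used; no source used here gives the aligner, the counting tool or the treatment of reads matching several miRNAs.

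The members, lists, tests and alternatives were chosen with earlier results of these data known. Named miRNAs are the 10 members, the 6 cluster partners, and the 5 others with a mean of at least 100 CPM and the highest rho with the summed 5p members. Tests used edgeR 4.0.16 with its quasi-likelihood F test (R 4.3.3; TMM, filterByExpr, two-sided, Benjamini-Hochberg over all miRNAs tested, adjusted p under 0.05) and were tested on simulated data. Status was compared at each day and on counts summed per cow. Days within each status and the difference of day effects were fitted without the cow as a block. Fits with that block were alternatives. The let-7a arm ratio, with 0.5 added to counts, used exact permutation (Python 3.11.15, numpy 2.4.6). Correlations used log2(TMM-scaled CPM + 0.5) and scipy 1.17.1. DESeq2 1.42.0, other scalings and filters, blood cell ratios as covariates and leaving out each cow were alternatives.

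Both libraries of a cow come from 1 animal, so cow numbers pair them; in the 16 cows with both days, deviations of 406 miRNAs from their group means had a median correlation of 0.25 between days (-0.28 to 0.83). The labels do not say how libraries were batched. The precision is limited by the spread between cows; SCE cow 10 was also limited by depth.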

Additional observations from a re-analysis of the deposited data

Results flagged for a closer look

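In 24 sets of 5 or 6 libraries, 7 held a library far from the others. The sets were each member, the family sum and the arm ratio in healthy cows at each day. All 7 were highest values of TMM-scaled CPM, taken without a log. The rule's rate of about 1 in 20 assumes normally spread values, so it does not measure chance here. The 7 are not independent, since 5 come from healthy cow 4 at day 25. That library had 6627 TMM-scaled CPM of let-7a-5p (the other 4 healthy libraries 406 to 1510), 7063 of let-7i (1284 to 2638), 578 of let-7d (134 to 231), 1081 of miR-98 (73.9 to 251) and 30928 of the family sum (4747 to 11105). The same cow at day 45 had 1005 TMM-scaled CPM of let-7a-5p and 175 of miR-98, within the range of the other cows.

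Healthy cow 5 at day 25 had 21.2 TMM-scaled CPM of let-7a-3p, against 5.31 to 8.18 in the other 4 healthy libraries. Healthy cow 6 at day 45 had 873 TMM-scaled CPM of let-7b, against 331 to 436 in the other 5. SCE groups, with 11 libraries each, were not examined in this way.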

How the results depend on the processing

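Of 1369 log2 values of members under alternatives, 1269 kept their sign and their side of the threshold, 95 had the other sign (50 of them with a cow left out) and 5 were past the threshold. Where no sentence here says otherwise the cause was not tested. Library totals alone, an alternative added after the data were seen, move the median of all miRNAs. This alternative called 48 miRNAs at day 25 (1 member, let-7a-3p), 1 at day 45 and 64 over both days (3 members). Its log2 fold changes at day 25 were 0.37 for let-7c, 0.53 for let-7e, 0.61 for let-7f, 0.39 for let-7g and 0.14 for let-7i, and at day 45 0.29 for miR-98, 0.40 for let-7a-5p, and 0.30 for both let-7f and let-7i. Over both days they were 0.29 for let-7a-5p, 0.55 for let-7c, 0.15 for let-7e, 0.55 for let-7f, 0.54 for let-7g, 0.21 for miR-98 and 0.31 for let-7i. For day 45 over day 25 in SCE cows they were -0.036 for let-7e and -0.042 for let-7i, and for the difference of day effects -0.34 for let-7b and -0.30 for let-7f.

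Counts of all miRNAs called at day 25 were 4 with DESeq2 size factors, 4 without miR-486, 6 with no filter, 14 with DESeq2, 2 with the miR-451 ratio and 2 with 33 libraries in 1 fit. At day 45 DESeq2 called 1 and the fit with the miR-451 ratio 1. Over both days they were 2 without miR-486, 2 with no filter, 2 with a filter of 10 CPM, 15 with DESeq2 (1 member), 0 with the miR-451 ratio and 0 with the miR-486 ratio. The difference of day effects had 1 with no filter. The miR-486 ratio turned let-7b (-0.021), let-7d (-0.41) and let-7e (0.34) at day 25, let-7a-5p (0.019) at day 45, and let-7c (0.091), let-7e (0.31) and let-7g (0.19) over both days. At day 45 the miR-451 ratio gave let-7g -0.19, leaving out miR-486 gave let-7c -0.0064, and the filter of 10 CPM gave let-7c -0.056 and let-7g -0.018. For day 45 over day 25 in healthy cows let-7d and let-7g were -0.066 and -0.059 with DESeq2 size factors, -0.099 and -0.052 with the filter of 10 CPM and -0.078 and -0.070 with DESeq2. The difference of day effects was -0.078 for let-7f without miR-486 and 0.074 for let-7d with the filter of 10 CPM.

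With the cow as a replicate block no member was called and no call changed. The blocked value was -0.033 for let-7i in SCE cows; 0.019 for let-7a-5p, -0.17 for let-7d, 0.13 for let-7f and -0.036 for let-7g in healthy cows; and -0.33 for let-7f in the difference of day effects.

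With each cow left out in turn, these members had values of both signs. For SCE over healthy at day 25 the range was -1.27 to 0.22 for let-7a-5p, -0.62 to 0.44 for let-7f and -1.34 to 0.088 for miR-98. For SCE over healthy at day 45 the range was -0.53 to 0.21 for let-7a-5p, -0.35 to 0.12 for miR-98, -0.0094 to 0.30 for let-7c, -0.22 to 0.16 for let-7f and -0.17 to 0.24 for let-7g. For SCE over healthy over both days the range was -0.33 to 0.094 for let-7g and -0.26 to 0.14 for let-7f. For day 45 over day 25 in SCE cows the range was -0.21 to 0.52 for let-7a-5p, -0.061 to 0.19 for let-7e, -0.14 to 0.23 for let-7i and -0.051 to 0.48 for miR-98. For day 45 over day 25 in healthy cows the range was -0.45 to 0.73 for let-7d, -0.17 to 0.70 for let-7g, -0.69 to 1.12 for let-7a-5p, -0.62 to 0.65 for let-7f, -0.52 to 0.56 for let-7i, -0.70 to 0.98 for miR-98 and -0.0093 to 0.73 for let-7a-3p. For the difference of day effects the range was -0.48 to 1.16 for let-7a-5p, -0.62 to 0.46 for let-7f, -0.20 to 0.70 for let-7i, -0.36 to 1.13 for miR-98 and -0.77 to 0.28 for let-7d. Calls of all miRNAs ran from 0 to 7 at day 25 and from 0 to 10 over both days, and no member was among those called. The arm ratio difference ran from 0.63 to 1.79 at day 25, where the call was lost in 6 of 16 cases, and from 0.57 to 1.2 at day 45. Depth limits let-7e and let-7a-3p in SCE cow 10.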
